A study of Mus musculus with 27 samples.

Results

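The 8 genes described here encode the acetylcholine receptor of skeletal muscle and the proteins that gather it under the nerve ending. They are the receptor subunit genes Chrna1 (alpha), Chrnb1 (beta), Chrnd (delta), Chrng (gamma) and Chrne (epsilon), and the clustering genes Musk, Rapsn and Dok7. They were taken by gene symbol from the 24825 genes listed for each sample, and each of the 8 symbols was present. The choice used no measured value, although it was made with earlier results of these data known.

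The samples were 27 RNA-seq libraries of C2C12 cells, a mouse myoblast line that fuses into myotubes. The 9 groups, of 3 replicates each, crossed 3 kinds of cells (ctrl, here control, then NFIA, expressing the whole protein, and deltapro#3, here the mutant) with 3 states (day 0, day 7, and day 7 followed by 4 h of forskolin at 10 µM). NFIA is a transcription factor of the nuclear factor I family, and the mutant lacks the C-terminal segment called pro#3. The comparisons ask whether the mutant still lowers muscle genes, and what happens to them during differentiation and when forskolin raises cyclic AMP. Both proteins were introduced by pMXs retrovirus and carried a 3xFLAG tag, and what the control cells received is not given in the sources used here. For day 7, control cells and cells with either construct received the same adipogenic mixture, which per the labels held for 48 h isobutylmethylxanthine (0.5 mM), dexamethasone (1 µM), indomethacin (125 nM), rosiglitazone (1 µM), T3 (1 nM) and insulin (850 nM) in 10% fetal bovine serum, and afterwards only rosiglitazone, T3, insulin and serum. Day 7 is therefore a state reached under adipogenic medium, without nerve contact, in a single cell line.

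At the neuromuscular junction, acetylcholine released by the motor nerve opens a pentameric channel made of alpha, beta and delta subunits with gamma in fetal muscle or epsilon in adult muscle. Agrin from the nerve binds Lrp4 and activates the kinase MuSK together with its adaptor Dok7, and rapsyn, encoded by Rapsn, then anchors receptors in dense clusters. The subunit genes are classical targets of the myogenic bHLH factors such as MyoD and myogenin, which bind E-boxes with the letters CANNTG.

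The libraries held 9567769 to 27230965 fragments counted to genes. In 3 groups replicate 1 stood apart over all genes. The chi-square of fragment counts per gene between it and the other 2 replicates was 14.0 and 14.4 in mutant cells at day 7, 13.5 and 15.0 in NFIA cells with forskolin and 11.9 and 14.0 in mutant cells with forskolin, against 5.95, 3.40 and 6.04 between the other 2, and at most 6.64 in the other groups. As a check of the labels, Nfia was at 225 to 594 FPKM (fragments per kilobase of exon, scaled to library size) in the cells given either construct and at 0.0885 to 7.35 FPKM in control cells, where the highest value belonged to replicate 2 at day 0 and the other control libraries were at or below 0.879. Among the 8 genes that library differed most from the other control libraries at day 0 for Dok7 (4.56 against 5.32 and 5.36 FPKM), and without it 7 of 7 tested genes were still called with each construct at day 0. Summed over 8 muscle markers (Myod1, Myog, Des, Ckm, Acta1, Mylpf, Myh3, Tnnt3), control cells held 1380 to 1465 FPKM at day 0 and 9973 to 11547 at day 7. The sum was 134 to 143 and 1776 to 2401 in NFIA cells, and 398 to 408 and 11360 to 11841 in mutant cells. With forskolin it was 9779 to 11531 in control, 1496 to 1826 in NFIA and 10186 to 11164 in mutant cells. The sum of 6 adipocyte markers (Pparg, Fabp4, Adipoq, Plin1, Cidec, Lpl) was 33.9 to 41.3 FPKM in control, 391 to 425 in NFIA and 302 to 321 in mutant cells at day 0, then 335 to 371, 13268 to 14750 and 602 to 1992 at day 7, and 291 to 300, 12798 to 13506 and 535 to 886 with forskolin. In mutant cells 5 of the 6 were lower with forskolin, against 23.9% of all genes, and the remaining 1 was higher. The part of these markers in the results was not tested. In bulk RNA, fewer muscle cells and less RNA of a gene per muscle cell cannot be told apart, and this holds for each difference below. The motor neuron genes Chat and Slc18a3 were at or near 0 in all 27 libraries (Chat at most 0.0162 FPKM, Slc18a3 at 0). Of the 8 neuron markers they belong to, Stmn2 was not: at day 0 it stood at 44.1 to 45.7 FPKM in control, 41.9 to 43.4 in NFIA and 82.1 to 85.3 in mutant cells, and it made up nearly the whole sum of the list (44.3 to 46.0, 42.3 to 43.7 and 82.4 to 85.5). At day 7 the list's sum was 2.26 to 3.01, 1.32 to 2.05 and 4.87 to 6.44. Its part in the results was not tested. The Schwann cell factor Sox10 was at most 0.0629 FPKM, while the sum of 6 Schwann cell markers at day 0 was 0.943 to 1.44 FPKM in control, 7.22 to 7.54 in NFIA and 4.58 to 5.02 in mutant cells, most of it S100b in the cells with a construct, and at day 7 it was 0.394 to 0.627, 9.19 to 11.0 and 1.57 to 2.38. Its part was not tested either.

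To show the stretches in front of these genes to which myogenic factors could bind, 4 promoters are printed from RefSeq on the build GRCm38.p6, each from 250 bases before to 50 bases after the start, with every CANNTG in capitals. Entries were found for 6 of the 8 genes. The Chrna1 window is chr2:73580289-73580588 on the minus strand, that of Chrng is chr1:87205561-87205860 on the plus strand, that of Musk is chr4:58285712-58286011 on the plus strand, and that of Chrne is chr11:70619145-70619444 on the minus strand.
Chrna1: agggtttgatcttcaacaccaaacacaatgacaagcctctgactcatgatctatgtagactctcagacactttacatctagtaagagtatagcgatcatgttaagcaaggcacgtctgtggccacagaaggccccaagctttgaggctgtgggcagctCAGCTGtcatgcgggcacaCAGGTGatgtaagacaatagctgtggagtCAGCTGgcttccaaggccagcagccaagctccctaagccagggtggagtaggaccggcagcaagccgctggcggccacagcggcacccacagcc
Chrng: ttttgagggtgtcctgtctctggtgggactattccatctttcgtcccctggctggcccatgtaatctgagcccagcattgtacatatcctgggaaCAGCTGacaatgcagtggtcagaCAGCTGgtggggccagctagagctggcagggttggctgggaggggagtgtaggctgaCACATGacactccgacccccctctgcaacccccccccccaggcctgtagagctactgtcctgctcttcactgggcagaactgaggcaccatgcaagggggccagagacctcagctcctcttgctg
Musk: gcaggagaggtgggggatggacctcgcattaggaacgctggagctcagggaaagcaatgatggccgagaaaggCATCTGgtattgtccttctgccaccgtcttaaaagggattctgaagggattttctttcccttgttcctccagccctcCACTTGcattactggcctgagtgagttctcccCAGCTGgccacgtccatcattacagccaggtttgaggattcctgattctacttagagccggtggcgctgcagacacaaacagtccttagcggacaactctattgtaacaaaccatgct
Chrne: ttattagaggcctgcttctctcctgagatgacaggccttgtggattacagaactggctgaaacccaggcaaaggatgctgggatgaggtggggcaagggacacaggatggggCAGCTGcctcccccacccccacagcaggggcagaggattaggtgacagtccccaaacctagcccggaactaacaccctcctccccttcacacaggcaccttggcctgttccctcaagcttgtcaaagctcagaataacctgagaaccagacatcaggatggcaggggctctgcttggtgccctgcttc
Of the 32851 mouse promoter windows of this length, 72.31% held at least 1 CANNTG and 17.61% held 3 or more, counted on both strands. Chrna1, Chrng, Musk and Chrnb1 held 3 each, the first Dok7 window and Chrne held 1, and the second Dok7 window held none. The form CAGCTG, which is a case of CANNTG, occurred 2 times in Chrna1 (92 and 44 bases before the start) and 2 times in Chrng (155 and 132 bases before it), against 1.896% of all windows with 2 or more. Chrne also held the letters CCGGAA, the core of the element called the N-box, 76 bases before the start, as did 14.9% of all windows in either orientation. The NFI site letters TTGGC or GCCAA occurred once in Chrna1, Chrng and Chrne, against 46.71% of windows with at least 1 on either strand. These are letter matches in the reference only.

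**Figure D1:**
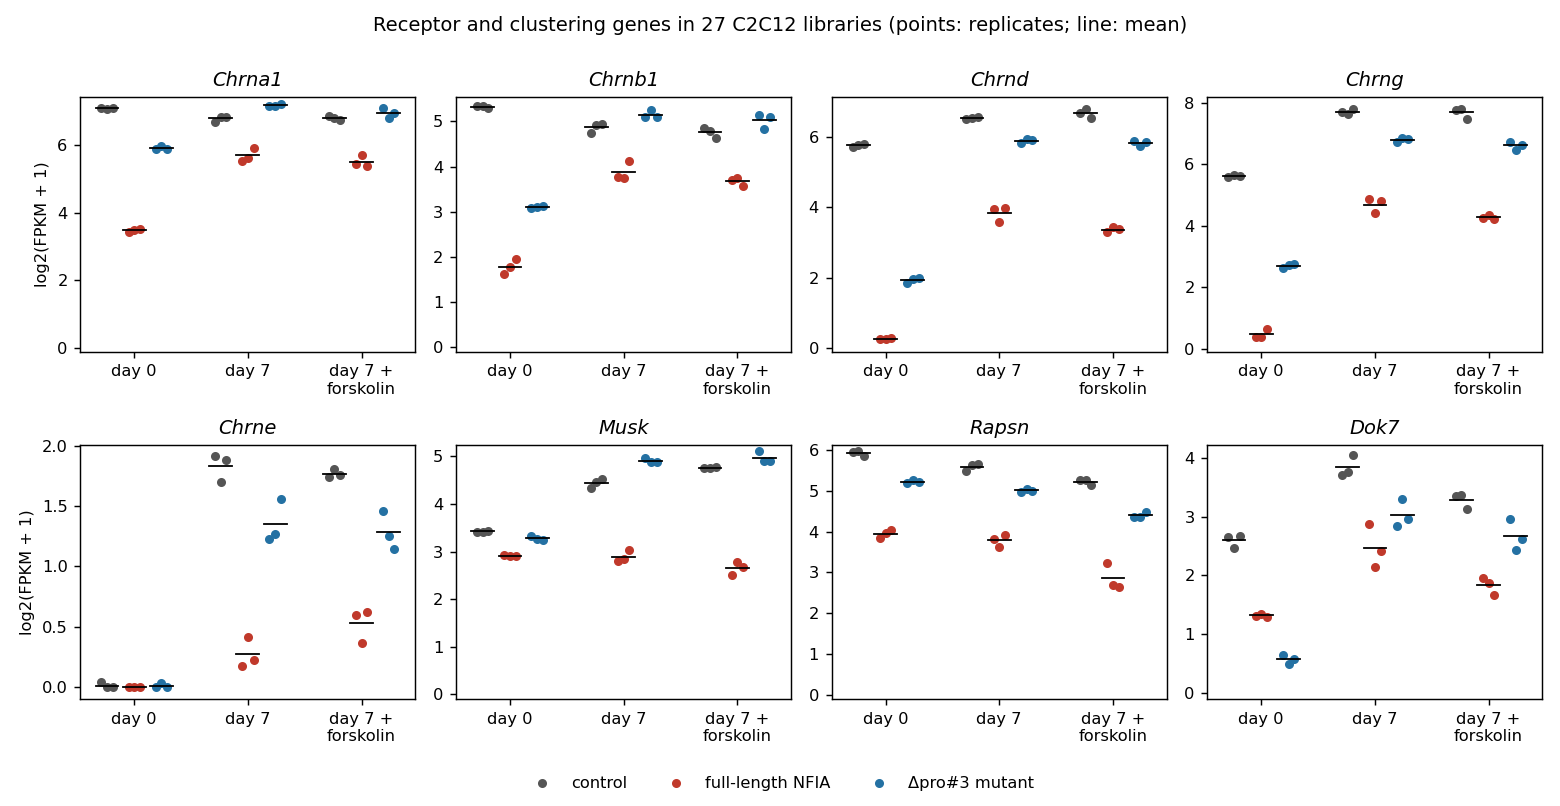
Level of each of the 8 genes in the 27 libraries, as log2(FPKM + 1), by time point on the horizontal axis. Points are replicates, short lines are means of 3, and the axis of each panel has its own range. At day 0 the NFIA cells lie lowest for 6 genes and the mutant lowest for Dok7, and by day 7 the mutant points of Chrna1, Chrnb1 and Musk lie above those of control cells.

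At day 0, before differentiation, full-length NFIA cells held less of the receptor and clustering transcripts than control cells, most of all of Chrnd and Chrng, and the mutant held less too. Differences are given as log2 differences, that is differences of mean log2(FPKM + 1), with the standard error, which understate the change of genes with low values, and p-values are from limma, adjusted over all genes tested. Of the 8 genes 7 passed the filter on low values at day 0, Chrne being the exception. With NFIA 7 of these 7 were lower at an adjusted p under 0.05, as were 35.6% of the 12105 genes tested, and 5 of 7 were lower by over 3-fold, against 2.78%. With the mutant 7 of 7 were lower, against 29.7% of genes, and 4 of 7 by over 3-fold, against 1.32%. Changes past 3-fold in these counts, here and below, are in FPKM + 1, not in mean FPKM. The median log2 difference was -3.55 with NFIA and -2.02 with the mutant for the 7 genes, and 0.0083 and 0.0095 for all genes tested. Both comparisons share the control libraries.

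Chrna1 encodes the alpha subunit, which carries the main part of the acetylcholine binding site, and lies at chr2:73401272-73418395 (NCBIM37, minus strand). At day 0 it stood at 135, 134 and 135 FPKM in control cells, at 9.85, 10.3 and 10.5 in NFIA cells and at 57.5, 61.4 and 57.8 in mutant cells. The 3 groups did not overlap, with NFIA cells lowest and the mutant between. The mean was 13.2-fold lower with NFIA (log2 difference -3.60 ± 0.03, adjusted p = 9.09e-14) and 2.28-fold lower with the mutant (-1.18 ± 0.03, adjusted p = 3.9e-10). At day 7 the values were 102, 113 and 112 in control, 45.2, 48.4 and 59.1 in NFIA and 141, 141 and 148 in mutant cells. The mutant had moved from below to above the control cells, while NFIA cells stayed below. The log2 difference from control was -1.09 ± 0.09 with NFIA (adjusted p = 1.57e-06) and 0.39 ± 0.09 with the mutant (adjusted p = 0.0046). Under forskolin it was at 114, 110 and 105 in control, 41.9, 51.1 and 40.6 in NFIA and 136, 111 and 122 in mutant cells. Control and mutant cells then overlapped, and their difference did not pass the test (0.16, 95% interval -0.05 to 0.37, adjusted p = 0.193). Ordered by mean, Chrna1 ran from mutant cells at day 7 (143) through control at day 0 (134), mutant with forskolin, control with forskolin (110) and control at day 7 (109), where each of the last 4 overlapped its neighbour, to mutant at day 0 (58.9), NFIA at day 7 (50.9) and NFIA with forskolin (44.5), which overlapped too, and last NFIA at day 0 (10.2).

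Chrnb1 encodes the beta subunit (chr11:69597538-69609445, NCBIM37, minus strand). Its day 0 values were 39.8, 39.2 and 38.6 FPKM in control, 2.09, 2.40 and 2.88 in NFIA and 7.50, 7.59 and 7.70 in mutant cells. No values overlapped between groups, and both constructs held it far below the control. It was 16.0-fold lower with NFIA (log2 difference -3.55 ± 0.07, adjusted p = 7.89e-12) and 5.16-fold lower with the mutant (-2.23 ± 0.07, adjusted p = 6.41e-10). By day 7 it stood at 25.6, 29.5 and 29.8 in control, 12.6, 12.4 and 16.3 in NFIA and 33.2, 36.9 and 33.5 in mutant cells. NFIA cells were lower (log2 difference -0.99 ± 0.10, adjusted p = 8.32e-06). Mutant cells were above every control value, but the difference was small (0.28 ± 0.10, adjusted p = 0.0416) and its call was lost with no filter (adjusted p = 0.0711), with no variance trend (adjusted p = 0.0513) and when any 1 of the 6 libraries of those groups was left out (adjusted p 0.0543 to 0.149). After forskolin the beta subunit was at 27.9, 26.7 and 23.9 in control, 12.1, 12.3 and 10.9 in NFIA and 34.4, 27.4 and 33.1 in mutant cells. Control and mutant cells overlapped there, with a log2 difference of 0.26 ± 0.09 (adjusted p = 0.0356), which was lost with no filter (adjusted p = 0.063) and without control replicate 2 or 3 or mutant replicate 1 or 3 (adjusted p 0.0638 to 0.134). Over the 9 groups Chrnb1 was highest in control cells at day 0, then came mutant and control cells at day 7 with and without forskolin, each overlapping its neighbour, and NFIA at day 7, NFIA with forskolin, mutant at day 0 and NFIA at day 0 followed without overlap.

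Chrnd and Chrng, for the delta and gamma subunits, are neighbours on chromosome 1, with 5741 bases between the end of Chrnd (chr1:89087227-89096644) and the start of Chrng (chr1:89102386-89108410, both NCBIM37, plus strand). At day 0 Chrnd stood at 51.2, 53.1 and 54.5 FPKM in control, 0.197, 0.200 and 0.208 in NFIA and 2.60, 2.88 and 2.97 in mutant cells. The NFIA values rest on 15, 15 and 7 fragments. The mean was 262-fold lower with NFIA and 18.8-fold lower with the mutant (log2 differences -5.49 ± 0.05 and -3.82 ± 0.05, adjusted p = 6.16e-14 and 2.87e-12). Chrng was at 47.4, 49.6 and 47.9 in control, 0.284, 0.309 and 0.552 in NFIA (14, 15 and 12 fragments) and 5.13, 5.57 and 5.72 in mutant cells. For both genes the 3 groups were apart, in the order control, mutant, NFIA. Chrng was 126-fold lower with NFIA (log2 difference -5.16 ± 0.07, adjusted p = 6.2e-13) and 8.82-fold lower with the mutant (-2.93 ± 0.07, adjusted p = 1.2e-10).

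At day 7 the same order held for the delta and gamma subunits, with smaller gaps. Chrnd was at 89.7, 91.5 and 93.6 FPKM in control, 14.5, 11.0 and 14.6 in NFIA and 55.9, 59.8 and 59.4 in mutant cells. Chrng was at 205, 200 and 224 in control, 28.0, 20.3 and 26.7 in NFIA and 106, 115 and 111 in mutant cells. The groups did not overlap for either gene. The log2 difference with NFIA was -2.70 ± 0.09 for Chrnd (adjusted p = 2.47e-09) and -3.03 ± 0.10 for Chrng (adjusted p = 2.7e-09). With the mutant it was -0.64 ± 0.09 for Chrnd (adjusted p = 0.0003) and -0.92 ± 0.10 for Chrng (adjusted p = 7.45e-05). The mutant thus held 63.7% of the control mean of Chrnd and 52.7% of that of Chrng, while the summed muscle markers of mutant cells overlapped the control range. Of those 8 markers 3 were higher and 3 lower in mutant cells at day 7, against 21.3% and 27.5% of all genes, the lower ones including Myog (-1.41 ± 0.19, adjusted p = 0.000259) and Myod1 (-0.82 ± 0.17, adjusted p = 0.00332), and their part in the lower Chrnd and Chrng was not tested. After forskolin Chrnd stood at 102, 110 and 92.0 in control, 8.80, 9.73 and 9.38 in NFIA and 57.8, 52.7 and 56.6 in mutant cells, and Chrng at 215, 224 and 179, at 17.9, 19.5 and 17.5 and at 105, 88.0 and 97.8 in the same order. NFIA cells remained lowest and control cells highest for both. Over the 9 groups control cells at day 7, with and without forskolin, led for both genes and overlapped each other, and NFIA at day 7, NFIA with forskolin, mutant at day 0 and NFIA at day 0 closed the order without overlap.

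Chrne encodes the epsilon subunit of the adult receptor (chr11:70428385-70432718, NCBIM37, minus strand, overlapped by another gene on the opposite strand, while fragments were counted on the matched strand). At day 0 only 1 fragment was counted over the 3 control libraries, 0 over the NFIA libraries and 1 over the mutant libraries, so it was not tested. The 0 fragments in NFIA cells allow up to 0.0303 FPKM, with counting error only. At day 7 Chrne stood at 2.76, 2.24 and 2.68 FPKM in control, 0.131, 0.336 and 0.165 in NFIA and 1.33, 1.40 and 1.95 in mutant cells. The 3 groups were apart, and control cells were highest. The log2 difference was -1.56 ± 0.11 with NFIA (adjusted p = 7.37e-07) and -0.48 ± 0.11 with the mutant (adjusted p = 0.00637). Chrne passed the filter through control and mutant cells only, so its NFIA difference is a description. With forskolin it was at 2.35, 2.5 and 2.37 in control, 0.514, 0.287 and 0.537 in NFIA and 1.74, 1.38 and 1.21 in mutant cells, again without overlap. NFIA cells with and without forskolin overlapped, and all day 7 groups lay above all day 0 groups.

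The fetal gamma subunit dominated over the adult epsilon subunit in each library. At day 7, with or without forskolin, Chrng made up 97.0% to 99.5% of the sum of Chrng and Chrne FPKM in the 18 libraries. The log2 ratio of Chrng to Chrne was lower in NFIA than in control cells under forskolin (5.11 ± 0.48 against 6.35 ± 0.16, SD, n = 3) without overlap, at the smallest p that an exact two-sided permutation test of 3 against 3 can give (p = 0.1, 0.3 after adjustment over 6 comparisons). Without forskolin the same ratio was 6.38 ± 0.73 in NFIA and 6.30 ± 0.13 in control cells, overlapping, and its order changed when NFIA replicate 1 or 3 was left out.

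With NFIA the clustering genes were lowered less than the delta and gamma subunits at day 0, and with the mutant this held for Musk and Rapsn. In mean FPKM it did not hold for Dok7 against Chrng with the mutant (10.3-fold and 8.82-fold lower). As log2 differences Dok7 was lowered less than Chrng (-2.02 and -2.93), and with a pseudocount of 0.1 they were alike (-3.13 and -3.12). Musk, the receptor tyrosine kinase gene (chr4:58298834-58390290, NCBIM37, plus strand), stood at 9.66, 9.72 and 9.88 FPKM in control, 6.58, 6.48 and 6.50 in NFIA and 9.11, 8.68 and 8.46 in mutant cells. The groups were apart but close, with log2 differences of -0.52 ± 0.04 (adjusted p = 2.33e-07) and -0.14 ± 0.04 (adjusted p = 0.00595), and the latter call was lost when the 27 libraries shared 1 fit (adjusted p = 0.0878). At day 7 Musk was at 19.3, 21.1 and 21.9 in control, 5.96, 6.24 and 7.21 in NFIA and 30.2, 28.6 and 28.6 in mutant cells. Here NFIA cells were lowest and the mutant cells highest. The log2 difference was -1.55 ± 0.07 with NFIA (adjusted p = 2.71e-08) and 0.47 ± 0.07 with the mutant (adjusted p = 0.000527). Under forskolin Musk reached 26.1, 26.0 and 26.6 in control, 4.70, 5.91 and 5.36 in NFIA and 33.7, 29.1 and 28.9 in mutant cells. The mutant was above control in 3 of 3 libraries with a log2 difference of 0.21 ± 0.08 that did not pass (adjusted p = 0.0511) but passed under 5 alternatives (adjusted p 0.0108 to 0.0492) and without NFIA replicate 1 or 2. Mutant cells at day 7 with and without forskolin led the order and overlapped, control cells and then mutant cells at day 0 followed, and NFIA cells came last, with those at day 0 and day 7 overlapping.

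Rapsn, for the scaffold protein rapsyn (chr2:90875777-90885886, NCBIM37, plus strand), was at 60.6, 61.3 and 57.0 FPKM in control, 13.2, 14.7 and 15.3 in NFIA and 35.6, 37.2 and 35.9 in mutant cells at day 0. At day 7 the values were 43.7, 48.6 and 49.3, then 13.2, 11.2 and 14.2, then 30.5, 32.1 and 31.1 in the same order. At both times control cells were highest, the mutant between and NFIA cells lowest, with no overlap. The log2 difference with NFIA was -1.98 ± 0.05 at day 0 and -1.80 ± 0.08 at day 7 (adjusted p = 5.37e-11 and 1.77e-08), and with the mutant -0.70 ± 0.05 and -0.58 ± 0.08 (adjusted p = 4.37e-07 and 0.000265). Forskolin-treated cells held 37.3, 37.6 and 34.1 in control, 8.41, 5.43 and 5.23 in NFIA and 19.3, 19.5 and 21.4 in mutant cells, in the same order of groups. Over the 9 groups control cells at day 0 were highest and NFIA cells with forskolin lowest, and the overlapping neighbours were control with forskolin and mutant at day 0, and NFIA at day 0 and day 7.

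Dok7, for the cytoplasmic activator of MuSK (chr5:35399462-35430488, NCBIM37, plus strand), was the gene with the other order at day 0. It stood at 5.32, 4.56 and 5.36 FPKM in control, 1.49, 1.54 and 1.47 in NFIA and 0.560, 0.416 and 0.502 in mutant cells, the last resting on 48, 40 and 51 fragments. The mutant was thus the lowest group and did not overlap with NFIA cells. The log2 difference from control was -1.28 ± 0.07 with NFIA (adjusted p = 1.68e-08) and -2.02 ± 0.07 with the mutant (adjusted p = 1.08e-09), and between mutant and NFIA cells it was -0.75 ± 0.07 (adjusted p = 2.47e-06). By day 7 Dok7 was at 12.1, 12.5 and 15.5 in control, 6.30, 3.41 and 4.34 in NFIA and 6.14, 8.80 and 6.78 in mutant cells. NFIA and mutant cells overlapped there, and both lay below control. Their log2 differences from control were -1.36 ± 0.18 (adjusted p = 6.06e-05) and -0.81 ± 0.18 (adjusted p = 0.00431). Between mutant and NFIA the difference was 0.55 ± 0.18 (adjusted p = 0.0207), and the call was lost without NFIA replicate 2 or 3 or mutant replicate 2 (adjusted p 0.0581 to 0.0798). With forskolin Dok7 was at 9.21, 9.36 and 7.77 in control, 2.87, 2.66 and 2.18 in NFIA and 6.80, 4.38 and 5.17 in mutant cells, without overlap. Over the 9 groups control at day 7 was highest, the next 5 groups (control with forskolin, mutant at day 7, mutant with forskolin, control at day 0, NFIA at day 7) each overlapped the next, and NFIA with forskolin, NFIA at day 0 and mutant at day 0 followed without overlap.

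**Figure D2:**
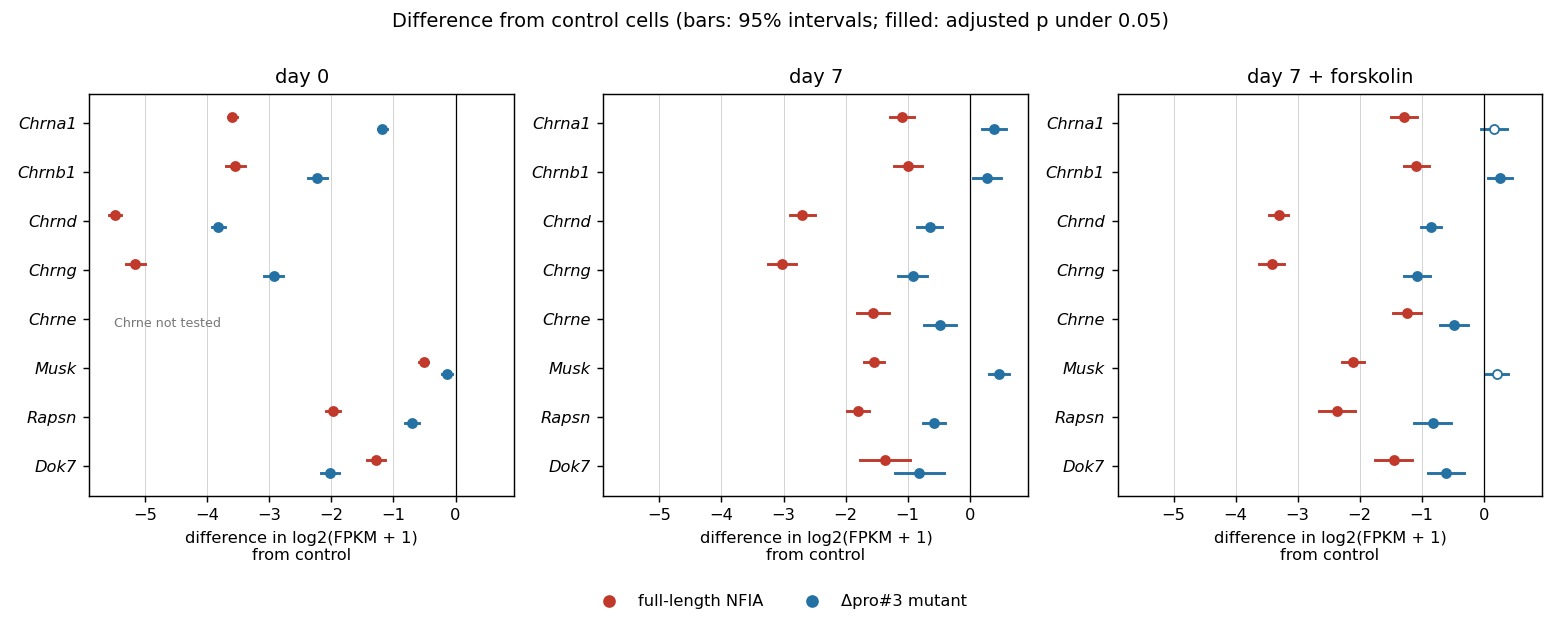
Difference in log2(FPKM + 1) from control cells for NFIA and mutant cells at the 3 time points. Points are limma estimates, bars are 95% intervals, and open points did not pass an adjusted p under 0.05. At day 7 the mutant estimates of Chrna1, Chrnb1 and Musk lie right of 0 while all NFIA estimates lie left of it.

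At day 7, all 8 genes passed the filter, Chrne through control and mutant cells only. With NFIA 8 of 8 were lower, as were 41.1% of the 12324 genes tested, and 3 of 8 by over 3-fold, against 3.3%. The count supports nothing for Chrne. With the mutant 8 of 8 passed the test, against 48.8% of genes in either direction, of which Chrna1, Chrnb1 and Musk were higher (21.3% of genes) and 5 were lower (27.5%), and 0 of 8 also passed 3-fold, against 1.44%. The median log2 difference was -1.55 with NFIA and -0.53 with the mutant, against -0.08 and -0.04 over all genes. Under forskolin 8 of 8 were lower with NFIA, against 47% of the 12121 genes, and 4 by over 3-fold, against 3.77%. This count too supports nothing for Chrne. With the mutant 6 of 8 passed, against 46.6%, with Chrnb1 higher (19.5% of genes) and 5 lower (27.1%), and 0 by over 3-fold, against 1.55%. Because the median of all genes was itself at -0.17 in the NFIA comparison under forskolin, the values relative to it were smaller by that amount. The largest, Chrng, was at -3.42 as deposited and -3.25 relative to the median of all genes.

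Between the constructs themselves, 7 of 7 genes passed at day 0, against 65.3% of genes. The mutant cells held more of 6, against 33.4% of genes higher, and less of 1, Dok7, against 31.9% lower, and 3 genes passed 3-fold (Chrna1, Chrnd and Chrng, against 0.925%). At day 7 the mutant held more of 8 of 8 genes, against 34.3%, and 3 by over 3-fold, against 2.6%. The day 7 log2 difference was largest for Chrng (2.11 ± 0.10), Chrnd (2.06 ± 0.09) and Musk (2.02 ± 0.07) and smallest for Dok7. Under forskolin 8 of 8 were higher in the mutant, against 42%, 3 of them by over 3-fold, against 2.89%, where the median of all genes was 0.12. Chrne passed the filter in both states through control and mutant cells only, so neither count of 8 supports anything for it. Set beside the NFIA effect, the mutant effect at day 0 was 0.70 times as large for Chrnd, 0.63 for Chrnb1, 0.57 for Chrng, 0.36 for Rapsn, 0.33 for Chrna1, 0.27 for Musk and 1.58 for Dok7, as ratios of the log2 differences. The added 1 shrinks the NFIA effect where levels in NFIA cells were low, and with a pseudocount of 0.1 the ratio was 0.56 for Chrnd, 0.59 for Chrnb1, 0.47 for Chrng and 1.85 for Dok7, so that Chrnd no longer came before Chrnb1. At day 7 these ratios were 0.24 for Chrnd, 0.30 for Chrng and 0.32 for Rapsn, 0.59 for Dok7, and below 0 for Chrna1, Chrnb1 and Musk (-0.36, -0.28 and -0.30).

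The subunits did not fall in proportion. At day 0 the Chrna1 level per Chrnd level in FPKM was 2.47 to 2.63 in control, 49.9 to 51.3 in NFIA and 19.5 to 22.1 in mutant cells, with no overlap. At day 7 it was 1.13 to 1.23, 3.13 to 4.39 and 2.36 to 2.52. The ratio of Chrna1 to Chrnb1 moved far less, from 3.39 to 3.49 in control cells at day 0 to 3.64 to 4.72 in NFIA and 7.51 to 8.09 in mutant cells. Chrng per Chrnd was 0.879 to 0.933 in control, 1.44 to 2.65 in NFIA and 1.93 to 1.97 in mutant cells at day 0, and 2.18 to 2.39, 1.83 to 1.94 and 1.87 to 1.92 at day 7. Control cells were thus lowest for this pair of neighbours at day 0 and highest at day 7. In NFIA cells at day 0 these ratios rest on 15, 15 and 7 fragments of Chrnd and 14, 15 and 12 of Chrng, so their ranges carry large counting error. Musk per Dok7 was 1.82 to 2.13 in control, 4.21 to 4.44 in NFIA and 16.3 to 20.9 in mutant cells at day 0, and 1.41 to 1.69, 0.946 to 1.83 and 3.25 to 4.92 at day 7. The mutant was thus the highest group for this ratio at both times, and at day 7 control and NFIA cells overlapped.

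**Figure D3:**
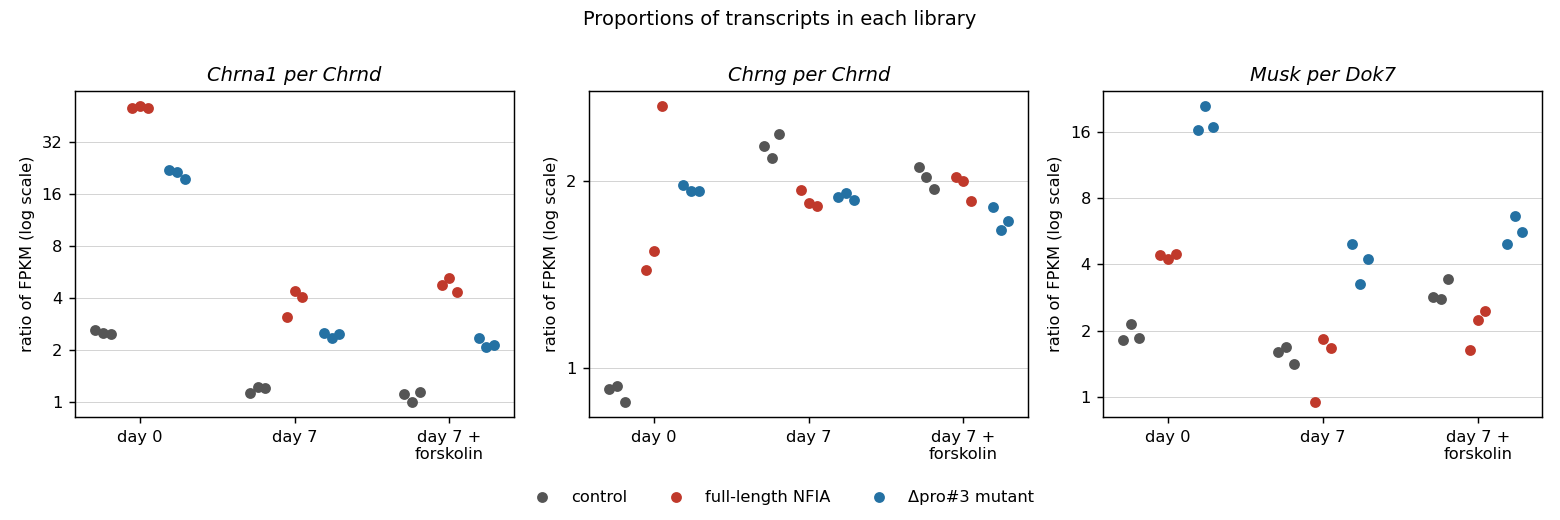
Ratios of FPKM within each library for Chrna1 to Chrnd, Chrng to Chrnd and Musk to Dok7, on a logarithmic vertical axis, with points as replicates. At day 0 the NFIA points of Chrna1 per Chrnd lie at 49.9 to 51.3, far above the control points at 2.47 to 2.63, and the mutant points of Musk per Dok7 lie highest. The NFIA values of Chrnd at day 0 rest on 15, 15 and 7 fragments.

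From day 0 to day 7 the genes parted by subunit in control cells, with gamma, epsilon, delta, Musk and Dok7 rising and alpha, beta and Rapsn falling. All 8 passed, against 78.7% of the 12408 genes tested, 5 higher (36% of genes) and 3 lower (42.7%), and 2 of them, Chrng and Chrne, rose over 3-fold, against 3.65%. Chrng rose 4.34-fold in mean FPKM (log2 difference 2.09 ± 0.09, adjusted p = 2.73e-12), and Chrna1 fell to 81.1% of its day 0 mean (-0.30 ± 0.07, adjusted p = 0.000878). Chrne passed the filter through its day 7 levels, so that its call follows from near absence at day 0, and both counts support nothing for it. It rose from 1 to 177 fragments summed over 3 control libraries, a depth-adjusted ratio of 311 with a 95% counting interval of 55.2 to 12371. In mutant cells it rose from 1 to 128 fragments (ratio 182, interval 32.1 to 7241). In NFIA cells 0 fragments were counted at day 0 and 2, 11 and 3 at day 7, so that replicate 2 held most of them.

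Cells with either construct started lower and rose more steeply for 4 of the 5 receptor subunits, Chrne being the exception. In NFIA cells 6 of 8 genes rose, against 33.2% of genes higher, 4 of them over 3-fold, against 5.38%. The 6 include Chrne, which passed the filter only through the control and mutant cells at day 7 and whose call in NFIA cells (0.27 ± 0.09, adjusted p = 0.0101) was lost without NFIA replicate 2 at day 7 (adjusted p = 0.0617), so the count supports nothing for Chrne. In mutant cells 8 passed, against 79.5%, of which 7 rose, against 32.8%, and Rapsn fell, against 46.7%, and 5 rose over 3-fold, against 3.91%. The 7 again include Chrne, which passed the filter only through day 7, so here too the count supports nothing for it. Chrnd rose 66.1-fold in NFIA cells (log2 difference 3.57 ± 0.07, adjusted p = 1.2e-16), 20.7-fold in mutant cells (3.96 ± 0.07, adjusted p = 4.18e-17) and 1.73-fold in control cells (0.78 ± 0.07, adjusted p = 4.69e-08). Chrna1 and Chrnb1 rose in both (Chrna1 by 2.20 ± 0.07 and 1.27 ± 0.07, Chrnb1 by 2.09 ± 0.09 and 2.05 ± 0.09, NFIA first) although both fell in control cells. The median of all genes was -0.11 in both comparisons, and relative to it these rises were slightly larger. Over the same time the muscle marker sum also rose, from 134 to 143 to 1776 to 2401 FPKM in NFIA cells and from 398 to 408 to 11360 to 11841 in mutant cells, and its part in the rise was not tested.

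Musk behaved otherwise in NFIA cells. It stayed at 6.58, 6.48 and 6.50 FPKM at day 0 and 5.96, 6.24 and 7.21 at day 7, overlapping, while it rose 2.13-fold in control and 3.33-fold in mutant cells. The log2 difference over time was -0.01 (95% interval -0.13 to 0.11, adjusted p = 0.839), and it was 0.12 with median-ratio scaling (adjusted p = 0.0816). Rapsn changed by -0.16 ± 0.07 in NFIA cells (adjusted p = 0.0502), which passed with a pseudocount of 0.1 (adjusted p = 0.0477), with a minimum mean FPKM of 1 (adjusted p = 0.0492) and without NFIA replicate 1 at day 0, NFIA replicate 3 at day 7 or control replicate 1 at day 7 (adjusted p 0.00938 to 0.0425). It changed by -0.21 ± 0.07 in mutant cells (adjusted p = 0.0116), the latter lost with median-ratio scaling (adjusted p = 0.299) and with the 27 libraries in 1 fit (adjusted p = 0.0724). Tested against the change in control cells, 6 of 8 changes differed with NFIA, against 71.2% of genes, and 7 of 8 with the mutant, against 44.7%. With NFIA the change was higher for Chrna1, Chrnb1, Chrnd and Chrng (31.1% of genes), each by over 3-fold (4.53%), and lower for Chrne and Musk (40.1%). With the mutant it was higher for the same 4 subunits as well as Musk and Dok7 (18.9%), by over 3-fold for Chrnb1, Chrnd and Chrng (1.54%), and lower for Chrne (25.9%). The Chrne difference with the mutant was lost with a pseudocount of 0.1 (adjusted p = 0.125) and with voom on fragments (adjusted p = 0.462). Chrne was near absent at day 0 in all cells and passed the filter only through control and mutant cells at day 7. Its differences restate its day 7 levels, and the counts of 6 and 7 support nothing for it.

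**Figure D4:**
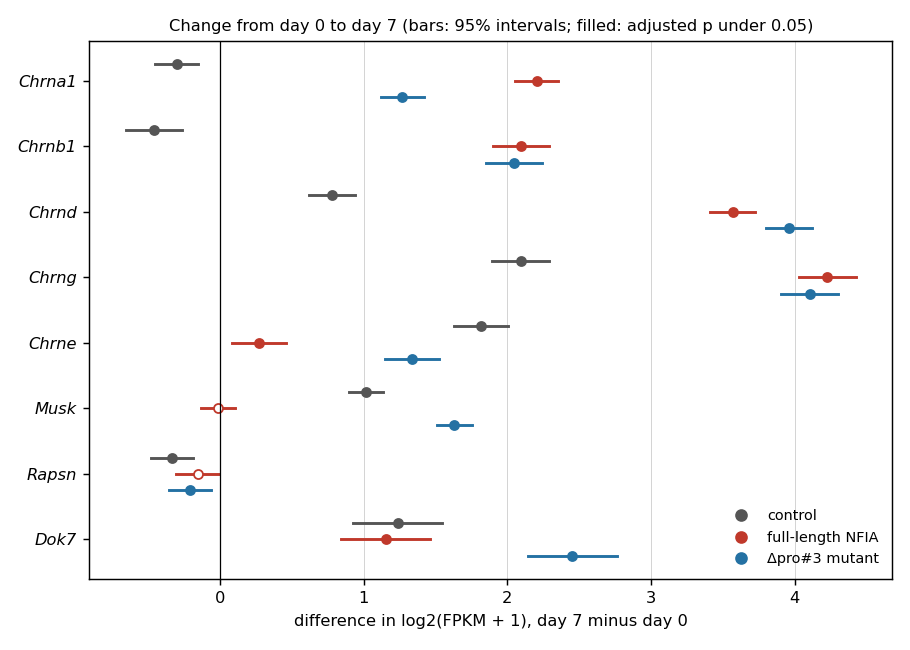
Change from day 0 to day 7 in log2(FPKM + 1) for control, NFIA and mutant cells, as limma estimates with 95% intervals, open where an adjusted p under 0.05 was not reached. Control changes of Chrna1 and Chrnb1 lie below 0 and those of both constructs above 1, and the Musk change in NFIA cells lies at -0.01.

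The response to forskolin for 4 h at day 7 was called for 3 of the 8 genes in control, 5 in NFIA and 1 in mutant cells. In control cells 3 of 8 passed, against 20.5% of the 12245 genes tested, with Musk higher (7.05% of genes; log2 difference 0.32 ± 0.08, adjusted p = 0.00743) and Rapsn and Dok7 lower (13.5% of genes; -0.37 ± 0.12 and -0.55 ± 0.17, adjusted p = 0.0371 and 0.0301). The Musk call was kept under each alternative run, while the Rapsn and Dok7 calls were both lost with median-ratio scaling, with no filter and without control replicate 2 or 3 at day 7 or any of the 3 forskolin-treated control replicates (adjusted p 0.0523 to 0.125), and the count was then 1. Rapsn was also lost with a pseudocount of 0.1 (adjusted p = 0.055). In NFIA cells 5 of 8 were lower, against 41.5% of genes, namely Chrnd, Chrng, Musk, Rapsn and Dok7. The median of all genes there was -0.15. With median-ratio scaling Chrnd was at -0.34, Chrng at -0.29, Rapsn at -0.82 and Dok7 at -0.54, which still passed, and Musk at -0.12 did not (adjusted p = 0.214), nor did Musk without NFIA replicate 3 at day 7 or forskolin-treated NFIA replicate 1 (adjusted p = 0.0958 and 0.0845). Chrne was at 0.26 ± 0.11 (adjusted p = 0.0573) and passed as higher under 4 alternatives (adjusted p 0.00712 to 0.0473). It entered this test only through control and mutant cells, so these passes support no response of Chrne in NFIA cells. In mutant cells 1 of 8 passed, Rapsn (-0.61 ± 0.12, adjusted p = 0.000768), against 23.9% of genes lower. The counts in the mutant were 2 in the 27-library fit (Chrna1 added) and with voom on fragments (Dok7 added), 2 without NFIA replicate 3 at day 7 (Chrna1 added) and 3 without forskolin-treated mutant replicate 1 (Chrna1 and Dok7 added), one of the libraries that stood apart. Without forskolin-treated NFIA replicate 1, which also stood apart, 4 of 8 were called in NFIA cells, and without mutant replicate 1 at day 7 the count in the mutant was 1.

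Rapsn was the gene called lower with forskolin in each kind of cells as deposited, at 77.0% of the untreated mean in control, 49.4% in NFIA and 64.3% in mutant cells. Its control call was lost under the alternatives given above. The Dok7 mean was lower in each kind of cells too (65.6%, 54.9% and 75.3%), but its call in mutant cells did not pass. Means of Chrnb1 and Chrng were also lower in each. In NFIA cells the Rapsn log2 difference was -0.94 ± 0.12, and -1.13 without forskolin-treated replicate 1, which held 8.41 FPKM against 5.43 and 5.23. Chrna1, Chrnb1 and Chrne did not pass in any of the 3 kinds of cells as deposited. Compared with the response of control cells, the response with NFIA was lower for Musk (-0.56 ± 0.11, adjusted p = 0.00118), Chrnd (-0.61 ± 0.12, adjusted p = 0.00118) and Rapsn (-0.57 ± 0.17, adjusted p = 0.0172), that is 3 of 8, against 21.5% of genes lower. For Musk the direction differed, with 26.1, 26.0 and 26.6 FPKM after and 19.3, 21.1 and 21.9 before forskolin in control cells, against 4.70, 5.91 and 5.36 after and 5.96, 6.24 and 7.21 before in NFIA cells. The median of this difference over all genes was -0.10, and relative to it Musk was at -0.46, Chrnd at -0.51 and Rapsn at -0.47. With the mutant 0 of 8 responses differed from the control response, against 4.97% of genes, by limma. An unadjusted p under 0.05 was reached by 1, Musk (log2 difference -0.26 ± 0.11, adjusted p = 0.213).

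**Figure D5:**
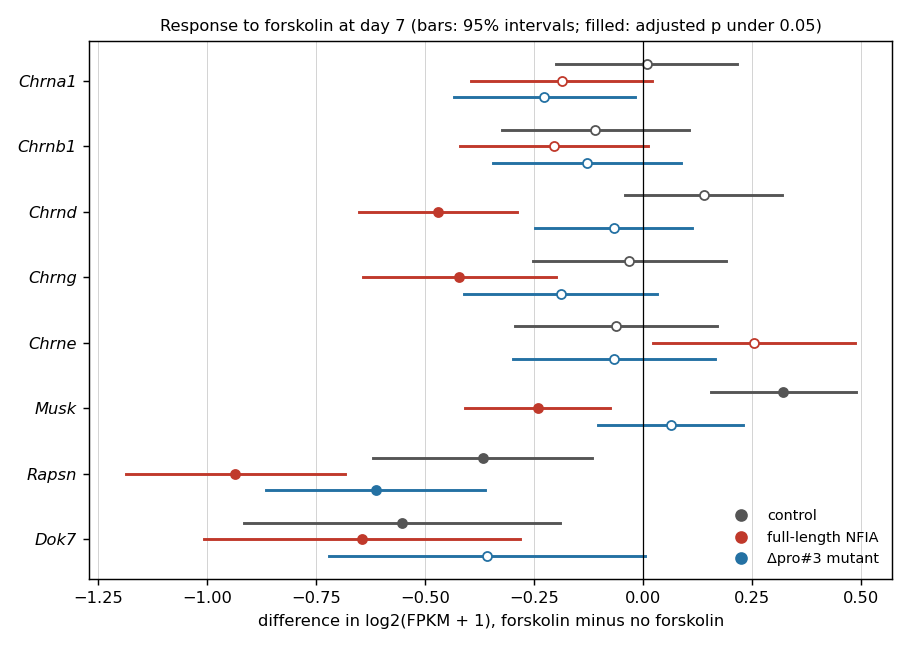
Response to forskolin at day 7 in log2(FPKM + 1) for control, NFIA and mutant cells, as limma estimates with 95% intervals, open where the test was not passed. Rapsn lies below 0 in each cell type, and Musk lies at 0.32 in control and -0.24 in NFIA cells.

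The rest of the pathway was followed with lists of genes. Over all genes tested, the shares higher and lower were 37.7% and 35.6% with NFIA at day 0, 32.5% and 29.7% with the mutant at day 0, 31.3% and 41.1% with NFIA at day 7, and 21.3% and 27.5% with the mutant at day 7. Of 12 agrin signalling genes, 12 were tested at day 0, and 0 were higher and 9 lower with NFIA (35.6% of all genes were lower), and 1 higher and 10 lower with the mutant (29.7% lower), with median log2 differences of -0.20 and -0.22, beside medians over all genes near 0. The one past 3-fold was Lrp4, the agrin receptor that activates MuSK, at 17.9 to 20.0 FPKM in control and 4.48 to 5.04 in NFIA cells at day 0 (log2 difference -1.78 ± 0.05, adjusted p = 1.34e-10). At day 7 with NFIA 1 was higher and 8 lower, and with the mutant 3 and 7, none past 3-fold.

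Of 13 genes of the synaptic basal lamina and the dystrophin-linked scaffold, 10 were tested at day 0, with 4 higher and 6 lower with NFIA (37.7% and 35.6% of all genes), and 12 at day 7, with 4 and 6 (31.3% and 41.1%). The 4 higher at day 7 include Colq, described below, and support nothing for it. Past 3-fold, Lama4, a laminin chain of the synaptic basal lamina, was higher with NFIA at both times (2.03 ± 0.04 and 2.55 ± 0.08, adjusted p = 8.06e-12 and 1.93e-09). Colq, the collagen tail that anchors acetylcholinesterase, was at 0.189 to 0.370 FPKM in control and 7.72 to 8.65 in NFIA cells at day 7, values given as a description because all control libraries lay under the minimum mean of 0.5 FPKM. Dtna, for dystrobrevin, was lower there (-2.15 ± 0.07, adjusted p = 2.5e-09), and Sntb1, for a syntrophin, was lower at day 0 (-2.21 ± 0.06, adjusted p = 1.53e-10). With the mutant 4 were higher and 5 lower at day 0, and 4 and 3 at day 7, none past 3-fold. The 4 at day 7 again include Colq and support nothing for it. The medians were -0.37 and -0.21 with NFIA and -0.03 and 0.08 with the mutant.

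Of 9 genes for neuregulin (Nrg1), its receptors and ETS factors, which act on synaptic transcription, 8 were tested. With NFIA 3 were higher and 3 lower at day 0 and 0 and 5 at day 7 (35.6% and 41.1% of all genes were lower), and with the mutant 0 and 6, then 1 and 3 (29.7% and 27.5% lower). The median log2 differences were -0.04 and -0.54 with NFIA and -0.18 and -0.15 with the mutant. Erbb3, a neuregulin receptor, was past 3-fold with NFIA at day 0 (-2.83 ± 0.06, adjusted p = 1.9e-11) and day 7 (-1.83 ± 0.13, adjusted p = 5.54e-07) and with the mutant at day 0 (-2.34 ± 0.06, adjusted p = 2.25e-10). Of 7 regulators of receptor transcription 5 were tested at each time, and with NFIA 5 were lower at day 0 and at day 7 (35.6% and 41.1% of all genes), with the mutant 3 and then 4 lower and 1 higher (29.7%, then 27.5% and 21.3%), at medians of -1.79, -2.57, -1.04 and -0.82. Myog, for myogenin, was at 156 to 168 FPKM in control, 1.77 to 2.15 in NFIA and 15.4 to 17.9 in mutant cells at day 0, an order of groups that Chrna1, Chrnb1, Chrnd, Chrng, Musk and Rapsn shared. Myod1, for MyoD, did not separate control from mutant cells. It stood at 40.9 to 45.8 in control, 17.5 to 18.3 in NFIA and 40.0 to 42.9 in mutant cells, where control and mutant overlapped. It was lower with NFIA (-1.25 ± 0.04, adjusted p = 7.93e-10), while its difference with the mutant did not pass (-0.07 ± 0.04, adjusted p = 0.219). The Myog log2 difference was -5.78 ± 0.06 with NFIA and -3.24 ± 0.06 with the mutant (adjusted p = 1.55e-13 and 3.65e-11). Myf5 was at -2.94 ± 0.05 with NFIA at day 0 (adjusted p = 4.92e-12), and Myog at -2.69 ± 0.19 at day 7 (adjusted p = 6.46e-07). At day 7 Myf6 was past 3-fold with both constructs (-6.35 ± 0.12 and -1.77 ± 0.12, adjusted p = 1.09e-10 and 3.58e-06). Of 11 neuronal-type subunits of the nicotinic receptor none was tested at day 0 and 2 at day 7, of which Chrna2 was at 0.112 to 0.152 FPKM in control, 8.51 to 9.51 in NFIA and 0 to 0.0388 in mutant cells. It passed the filter only through the NFIA cells, so these levels are a description.

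The levels over the 27 libraries were compared between the 8 genes and with 11575 other genes, as Pearson r of log2(FPKM + 1). These points share libraries, groups and depth, and the values are descriptions. Among the members the closest pair was Chrnd and Chrng (r = 0.99), followed by Chrna1 with Chrnb1 and Chrnb1 with Chrnd (0.96 each), and Rapsn with Chrne was the least alike (0.27). The 3 genes most like Chrna1 were Alox5 (r = 0.98), Klhl30 (0.97) and Igfbp5 (0.95), and those most like Chrnb1 were Sema6a (0.98), Klhl30 (0.97) and Alox5 (0.96). For Chrnd they were Pdlim3 (0.99), Gprc5c (0.97) and Actn3 (0.97), and for Chrng Ctsl, Stac3 and Hacd1 (0.98 each). For Chrne they were 2310057M21Rik, Tspan13 (0.99 each) and Atp6v1c2 (0.98), and for Musk Slc11a2 (0.98), Cfl2 (0.97) and Ccndbp1 (0.97). For Rapsn they were Sema6c, Fbxo32 (0.97 each) and Wdr59 (0.96), and for Dok7 Ubqln4 (0.98), Ppfia4 (0.95) and 8430408G22Rik (0.95). Chrna1 and Chrnb1 shared Alox5 and Klhl30 among their 3 most alike genes.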

How the data were processed

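The authors aligned reads of polyadenylated RNA to mm9 with STAR 2.5.3a, took the strand-matched fragment count of every gene and deposited these as FPKM for single libraries, with no scaling between libraries and no log scale. From these FPKM values and the gene lengths, whole fragments per gene were recovered (100% of values under 1000 fragments lay within 0.05 of a whole number). They served for depth, the comparison of replicates, the Chrne ratios and floor, and 1 alternative. Nothing in the labels says that replicates were separate cultures, so p-values measure only the spread between these libraries, which may be technical. With the counts given, intervals and floors cover counting error only.

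The members and lists were chosen with earlier results of these data known. Members were the 8 symbols, and of the lists only the 2 largest changes in each direction past both limits, with NFIA or the mutant against control at day 0 or day 7, were named by rule. Myod1, Myog at day 7 with the mutant, and the marker genes Chat, Slc18a3, Stmn2, Sox10 and S100b were chosen after their values were seen. The 3 most alike genes per member were sought among genes with a mean FPKM of at least 1. limma 3.58.1 in R 4.3.3 was run with a variance trend on log2(FPKM + 1) for genes with a mean FPKM of at least 0.5, on the 9 libraries of a time point, or on 18 for forskolin responses and changes over time, all 2-sided with Benjamini-Hochberg adjustment over all genes tested. A call needed an adjusted p under 0.05, and the stricter call also a change over 3-fold in FPKM + 1. The script was tested on simulated data. Ratios used a pseudocount of 0.1 and an exact permutation test (scipy 1.17.1). Figures used matplotlib 3.10.9 and Python 3.11.15.

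Alternatives were another pseudocount, median-ratio scaling, other filters, no variance trend, all 27 libraries in 1 fit, the 2 groups alone, voom on fragments, the replicate block and leaving out each library.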

Additional observations from a re-analysis of the deposited data

Results flagged for a closer look

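The effects of forskolin and of time were compared between cells with a construct and control cells, and 16 such differences for the 8 genes passed an adjusted p under 0.05 in limma. They are listed with the size of the difference in log2 change, construct minus control. Of all genes, 21.5% were lower with NFIA in the forskolin comparison, against 3 of the 8, and in the comparison over time 71.2% differed with NFIA, against 6 of 8, and 44.7% with the mutant, against 7 of 8.

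In the response to forskolin, NFIA cells differed from control cells for Chrnd (-0.61), Musk (-0.56) and Rapsn (-0.57), each lower. In the change from day 0 to day 7, NFIA cells differed for Chrna1 (2.5), Chrnb1 (2.55), Chrnd (2.79) and Chrng (2.13), each higher, and for Chrne (-1.55) and Musk (-1.03), both lower. Mutant cells differed for Chrna1 (1.57), Chrnb1 (2.51), Chrnd (3.18), Chrng (2.01), Dok7 (1.22) and Musk (0.61), each higher, and for Chrne (-0.48), which was lower. The added 1 shrinks changes from low day 0 levels, so these sizes do not rank the constructs. In mean FPKM Chrnd rose 66.1-fold in NFIA and 20.7-fold in mutant cells. Chrne was near absent at day 0 in all 3 kinds of cells, so its values restate its day 7 differences from control (-1.56 with NFIA and -0.48 with the mutant). It passed the filter only through control and mutant cells at day 7, so the counts here support nothing for it.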

How the results depend on the processing

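In the comparisons of constructs no member changed direction under any alternative. Counts of members that passed moved by more than 1.5 times for forskolin in control cells (3, against 1 with median-ratio scaling and with no filter on low values, and 1 to 3 with a library left out) and in mutant cells (1, against 2 with all 27 libraries in 1 fit and with voom on fragments, and 1 to 3 with a library left out). Same-numbered libraries of different groups did not deviate together (correlations -0.173 to 0.131, 1 of 27 over 0.1), so the numbers were not used as pairs. With the replicate block no member changed its call in 19 comparisons, and the forskolin count in control cells stayed at 3. A minimum mean FPKM of 1 left 5 member results without a value.

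Changes of sign concerned differences that did not pass. Median-ratio scaling turned Chrng under forskolin in control cells to 0.025 and the Musk change over time in NFIA cells to 0.12, and the difference of the Dok7 change over time, NFIA against control, was 0.16 with a pseudocount of 0.1 and 0.11 with voom on fragments. With a library left out the ranges were -0.0394 to 0.0401 for Chrna1 and -0.0931 to 0.0678 for Chrng under forskolin in control cells, -0.151 to 0.0403 for Chrne and -0.0063 to 0.101 for Musk under forskolin in mutant cells, -0.158 to 0.0234 for Chrnb1 and -0.258 to 0.106 for Dok7 in the forskolin difference of NFIA, -0.0822 to 0.0778 for Chrnb1 and -0.0900 to 0.101 for Chrne in that of the mutant, -0.0834 to 0.0361 for the Musk change in NFIA cells, -0.281 to 0.0829 for the Dok7 difference over time, and -0.196 to 0.49 for the log2 ratio of Chrng to Chrne, NFIA against control at day 7 (0.076 with all libraries). The cause of these changes was not tested. At day 0 the depth limited Chrne, with at most 1 fragment in a library, and Chrnd and Chrng in NFIA cells.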
